A study of Homo sapiens with 12 samples.

Results

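EGR1, FOS, JUND, IER5 and KLF2 are grouped here as immediate early genes, a class whose transcripts typically appear within minutes of a signal to the cell. JUND is the most steadily expressed of its family. They were taken by symbol from the array's probe annotation, and are 5 of the 14884 genes that this annotation names. EGR1 and FOS each have 2 transcript clusters (groups of probes placed by the array's design in 1 transcribed region) and the other genes have 1, so 7 of 53617 clusters are described. All measurements come from SK-N-BE(2), an established line of human neuroblastoma cells with amplified MYCN. Cultures received vehicle, JQ1 at 1 µM, panobinostat at 10 nM, or JQ1 and panobinostat in combination, all for 6 h, and each of these 4 groups has 3 arrays. The labels neither name the vehicle nor repeat the doses for the combination. The design asks what each compound does alone and what the pair does together.

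JQ1 blocks the acetyl-lysine pockets of BET bromodomain proteins, which bring transcription machinery to acetylated chromatin. Panobinostat blocks histone deacetylases, the enzymes that take acetyl groups off histones and other proteins. Immediate early genes need no new protein synthesis for their induction: kinase cascades act on factors already bound at their promoters, such as SRF with its partners at CArG boxes and CREB at cAMP response elements, and paused RNA polymerase is released. Many of their products are short-lived transcription factors that set the next wave of transcription, and in cells of the sympathetic lineage they are classically induced by growth factors, depolarisation and stress.

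The 250 bases before each start site are shown because promoter-bound factors act close to the start and the 5 windows hold different elements. Elements farther upstream, among them the serum response element of FOS, where SRF binds, lie outside these windows. They were read from a RefSeq promoter table of build GRCh38.p14, which had an entry for each of the 5 genes. The sequences run 5′ to 3′ on the strand of the gene and end at the base before the start.
EGR1: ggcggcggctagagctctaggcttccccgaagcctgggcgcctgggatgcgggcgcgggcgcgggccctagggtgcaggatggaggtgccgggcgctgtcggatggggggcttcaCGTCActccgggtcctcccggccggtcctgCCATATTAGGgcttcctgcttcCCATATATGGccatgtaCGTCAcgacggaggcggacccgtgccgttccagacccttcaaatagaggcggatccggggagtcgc
FOS: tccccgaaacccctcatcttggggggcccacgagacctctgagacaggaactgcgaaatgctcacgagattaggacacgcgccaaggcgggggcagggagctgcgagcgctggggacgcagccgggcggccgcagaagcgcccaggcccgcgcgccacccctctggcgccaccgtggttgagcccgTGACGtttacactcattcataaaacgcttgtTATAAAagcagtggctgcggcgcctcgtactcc
JUND: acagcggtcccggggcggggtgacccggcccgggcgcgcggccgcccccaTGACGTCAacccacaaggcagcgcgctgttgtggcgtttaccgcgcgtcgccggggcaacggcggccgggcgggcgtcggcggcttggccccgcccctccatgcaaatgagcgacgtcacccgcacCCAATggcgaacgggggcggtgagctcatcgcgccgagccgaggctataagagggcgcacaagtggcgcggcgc
IER5: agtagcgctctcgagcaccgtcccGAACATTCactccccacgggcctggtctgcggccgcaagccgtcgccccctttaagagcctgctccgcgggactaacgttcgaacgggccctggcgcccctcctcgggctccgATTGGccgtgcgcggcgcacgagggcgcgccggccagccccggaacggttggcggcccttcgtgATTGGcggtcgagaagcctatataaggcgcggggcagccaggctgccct
KLF2: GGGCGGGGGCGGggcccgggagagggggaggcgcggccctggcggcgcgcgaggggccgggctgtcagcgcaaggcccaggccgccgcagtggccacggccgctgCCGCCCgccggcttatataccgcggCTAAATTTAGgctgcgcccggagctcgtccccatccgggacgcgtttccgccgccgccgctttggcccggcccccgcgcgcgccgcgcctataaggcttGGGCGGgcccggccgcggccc
Capitals mark the CArG boxes and the cAMP response element core in EGR1, the core and the TATA box in FOS, and the full cAMP response element and the CCAAT box in JUND. In IER5 they mark the CCAAT boxes, read on the reverse strand, and a heat shock element, and in KLF2 a MEF2 box and the GC boxes. EGR1 (window chr5:138465229-138465478, plus strand) starts a gene of 3825 bases. The FOS window is chr14:75278578-75278827 on the plus strand, and its gene spans 3403 bases. JUND lies on the minus strand, with the window chr19:18281623-18281872 and a gene of 1929 bases. The IER5 window is chr1:181088450-181088699 on the plus strand and leads a gene of 4201 bases. KLF2 has the window chr19:16324576-16324825 on the plus strand and a gene of 3860 bases. All 5 genes are short, since the median protein-coding gene measured spans 26723.5 bases.

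Both strands of each window were searched for 11 motifs, and the share of all 35116 promoters of the table with a match is given for each. The CArG box occurred 2 times in EGR1 and in 1.16% of all promoters. A full cAMP response element (TGACGTCA) was present in JUND and in 1.65% of promoters. Its core TGACG, of which the full element holds a copy on each strand, was found in EGR1, FOS and JUND and in 21.2% of promoters. The TATA box TATAAA was found in FOS, 33 bases before the start, and in 10.7% of promoters. Only these exact letters were searched, so near variants, such as those in the JUND, IER5 and KLF2 windows, were not counted. CCAAT occurred in JUND and in IER5, and in 32.0% of promoters. The GC box GGGCGG occurred in FOS, JUND and KLF2 and in 42.6% of promoters, and CACCC, the core bound by KLF proteins, in EGR1, FOS and JUND and in 54.7%. An EGR site (GCGGGGGCG or GCGTGGGCG), the kind of sequence that EGR1 protein binds, was in the KLF2 window, overlapping GC boxes, and in 5.37% of promoters. The AP-1 site (TGACTCA or TGAGTCA), the sequence bound by FOS and JUN family dimers, was in none of the 5 windows and in 4.20% of promoters. After the 5 sequences had been seen, a MEF2 box was searched for as well and was found in KLF2 and in 0.515% of promoters. The heat shock element GAANNTTC was added in the same way, and was found in IER5 and in 5.78% of promoters. A match is a match of letters only. The windows held 64.8% (FOS) to 80.0% (KLF2) G and C, against a median of 58.0% over all promoters. The start of KLF2-DT, a long non-coding RNA gene on the opposite strand, lies 156 bases from the start of KLF2, so it falls inside the KLF2 window.

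**Figure D1:**
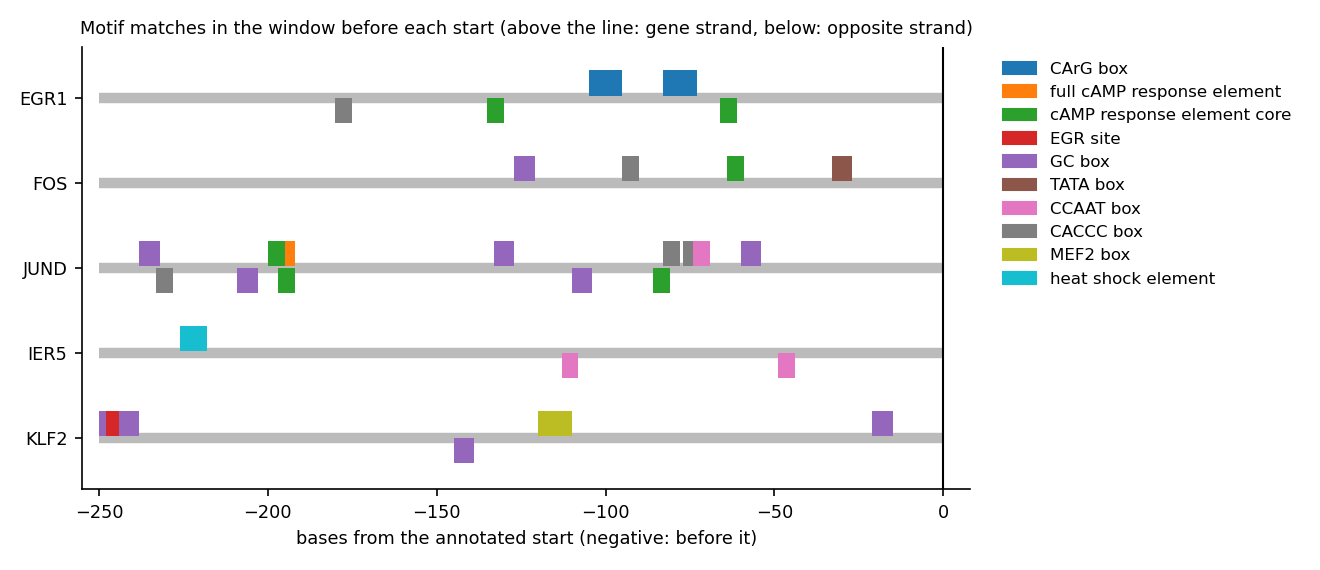
Positions of motif matches in the 250 bases before the start of EGR1, FOS, JUND, IER5 and KLF2, with the distance from the start in bases on the horizontal axis and 1 line per gene, matches on the gene's strand above it and on the other strand below. The CArG boxes are in the EGR1 window, the exact TATA box TATAAA in the FOS window and the MEF2 box in the KLF2 window.

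Signal is given as the deposited value per cluster and array, read as log2 intensity, so a difference of 1 is a doubling. The log base is not stated in the labels, so fold changes rest on this reading. Arrays of a group correlated at 0.991 to 0.995 over the 14884 genes (1 cluster each), and arrays of different groups at 0.962 to 0.989. Of 11 markers of adrenergic neuroblastoma 10 were measured, with vehicle means of 8.73 to 11.8. Their mean per array ran from 10.61 to 10.64 with vehicle, 10.53 to 10.56 with JQ1, 10.12 to 10.19 with panobinostat and 9.85 to 9.90 with the combination. With JQ1 1 of them was higher and 2 were lower by the test used below, with panobinostat 8 were lower, and with the combination all 10 were. The JQ1 lower count fell to 0 without vehicle replicate 2 and to 1 without vehicle replicate 3, any 1 JQ1 array or combination replicate 2, and the higher one was lost without JQ1 replicate 3. Over all settings tried, the JQ1 lower count ran from 0 to 4 and the panobinostat count from 6 to 8, and the combination count was 10 in each. The level of these markers thus moved with the groups compared here, and its part in the results was not tested. Of 15 immune, endothelial and fibroblast markers 6 were measured. LUM, a matrix proteoglycan gene, had a vehicle mean of 11.8, and the other 5 had means of 5.13 to 6.34. LUM was called lower with JQ1 (-0.33, adjusted p 0.0402, lost in 10 of 21 settings) and with the combination (-0.41, adjusted p 0.00660). DCN, the other fibroblast marker measured, was called lower with the combination (-0.52, adjusted p 0.0309), a call lost without vehicle replicate 1 or 3 or combination replicate 1 or 2. The immune and endothelial markers were not called against vehicle. The part of these levels in the results was not tested. In RNA from whole cultures, fewer cells of a type and less RNA per cell cannot be told apart.

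All 5 genes were higher than in vehicle with the combination, 4 with JQ1 (EGR1, JUND, IER5 and KLF2) and 2 with panobinostat (EGR1 and IER5), at an adjusted p under 0.05 (limma over 12 arrays, Benjamini-Hochberg over the 14884 genes). None was called lower in those comparisons. Calls were common in these data: 8.18% of all genes were called higher with JQ1, 14.5% with panobinostat and 18.2% with the combination. The 5 genes were chosen with earlier results of these data known, so their counts beside all genes, here and below, are descriptions only. The median change of the 5 genes was 1.07 on the log2 scale with JQ1, 0.49 with panobinostat and 1.34 with the combination, while the median over all genes was 0.01, 0.03 and 0.02. Counted by arrays alone, every JQ1 array lay above every vehicle array for all 5 genes, a separation found for 16.6% of all genes. With panobinostat this held for EGR1, FOS and IER5, and for 19.9% of all genes. With the combination it held for all 5, and for 22.6% of all genes. EGR1 and IER5 were called higher in all 3 comparisons with vehicle, as were 635 genes of the 14884. These 3 comparisons share the vehicle arrays.

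EGR1, a zinc-finger transcription factor that binds GC-rich sites, had the largest rise of the 5 in each comparison with vehicle. Its brighter cluster (16989736) read 9.62, 9.23 and 9.36 on the 3 vehicle arrays. With JQ1 it read 10.64, 10.63 and 10.66, and with panobinostat 10.52, 10.50 and 10.48. With the combination the values were 10.85, 11.33 and 11.16. The vehicle arrays were the lowest, the panobinostat arrays lay just below the JQ1 arrays, and no 2 groups overlapped. Against vehicle the change was 1.24 ± 0.12 with JQ1 (log2 ± SE, n = 3 arrays a group), 1.10 ± 0.12 with panobinostat and 1.71 ± 0.12 with the combination. These are 2.36-fold, 2.14-fold and 3.27-fold, with adjusted p of 5.43e-05, 4.64e-05 and 6.10e-07 in limma. EGR1 thus rose with every treatment, and most with both compounds. The combination was also above JQ1 by 0.47 ± 0.12 (adjusted p 0.0128) and above panobinostat by 0.61 ± 0.12 (adjusted p 0.00553). Without combination replicate 2 the difference from JQ1 was 0.36 and no longer called (adjusted p 0.0547). The addition of panobinostat to JQ1 is thus the less secure of these calls. The compounds alone differed by -0.14 (panobinostat minus JQ1, 95% interval -0.41 to 0.12, adjusted p 0.448). The order of the means was therefore vehicle at 9.40 ± 0.20 (SD), panobinostat at 10.50 ± 0.02, JQ1 at 10.64 ± 0.02 and the combination at 11.11 ± 0.24, with the middle pair not separated by the test.

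The second EGR1 cluster (17000463) was dimmer. It read 6.63, 5.74 and 5.80 with vehicle and 6.68, 6.91 and 6.96 with JQ1. With panobinostat it read 6.51, 6.64 and 6.84, and with the combination 6.63, 7.46 and 7.45. Vehicle replicate 1 stood about as high as the treated arrays, so this cluster's groups overlapped, apart from JQ1 against vehicle. In a fit over all 53617 clusters its changes were 0.79 ± 0.26 with JQ1 (limma adjusted p 0.118), 0.61 under panobinostat (adjusted p 0.178) and 1.12 for the combination, the call it passed (adjusted p 0.0109). With the mean of both clusters as the value for EGR1, the gene was still called against vehicle in all 3 comparisons. It was then not called for the combination against JQ1 (0.40, adjusted p 0.135) or against panobinostat (0.57, adjusted p 0.0589). Where the probes of the second cluster lie, and on which strand, was not analysed here.

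KLF2, a zinc-finger factor of the Krüppel-like family known for keeping endothelial cells and T cells quiescent, rose with JQ1 and with the combination. Its vehicle arrays read 8.64, 8.17 and 8.58, and its JQ1 arrays 9.66, 9.30 and 9.72. With panobinostat it read 8.95, 8.59 and 9.32, and with the combination 9.74, 9.92 and 10.26. Panobinostat replicates 1 and 3 were above every vehicle array, replicate 2 was not, and replicate 3 lay just above the lowest JQ1 array. KLF2 was the most variable of the 5 genes within groups, with a pooled SD of 0.283 on the log2 scale, against a median of 0.133 over all genes. The change was 1.10 ± 0.20 with JQ1 (2.14-fold, adjusted p 0.00279) and 1.51 with the combination (2.85-fold, adjusted p 7.92e-05). With panobinostat it was 0.49 (95% interval 0.05 to 0.93, adjusted p 0.0921), which was not called. Without panobinostat replicate 2 it was 0.67 and was called (adjusted p 0.0309), and without panobinostat replicate 3 it was 0.30 (adjusted p 0.299). The arrays with JQ1, alone or in combination, held the highest KLF2 signals apart from the 1 overlapping panobinostat array. The combination stood 1.03 ± 0.20 above panobinostat (adjusted p 0.00556). Against JQ1 the combination differed by 0.42 with no overlap of arrays, and this was not called (adjusted p 0.160), with a range of 0.28 to 0.53 on leaving out 1 array. Panobinostat minus JQ1 was -0.61 (95% interval -1.05 to -0.17, adjusted p 0.0476). That call was lost in 10 of 21 alternative settings, among them leaving out vehicle replicate 1 or 3, JQ1 replicate 1 or 3, panobinostat replicate 1 or 2, or combination replicate 2 (adjusted p 0.0502 to 0.171 in these 7). The means ran from vehicle at 8.46 ± 0.26 (SD) through panobinostat at 8.95 ± 0.37 and JQ1 at 9.56 ± 0.23 to the combination at 9.98 ± 0.26. Vehicle and panobinostat were not separated by the test, nor were JQ1 and the combination.

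FOS, the AP-1 subunit that must pair with a JUN protein to bind DNA, was called against vehicle only with the combination. The brighter FOS cluster (16786587) read 6.70, 6.89 and 6.79 with vehicle. JQ1 arrays read 7.35, 7.01 and 7.33, and panobinostat arrays 7.35, 7.29 and 7.01, so that the compounds alone overlapped each other while both lay above vehicle. The combination arrays, at 7.98, 7.94 and 8.48, were above all the others. The change with the combination was 1.34 ± 0.15 (2.53-fold, adjusted p 2.18e-05 in limma). The deposited values carry no detection calls, so how far the FOS vehicle signal lies above background is not known, and the fold is that of the deposited signals only. With JQ1 the log2 change was 0.44 (95% interval 0.11 to 0.76, adjusted p 0.0676) and with panobinostat 0.42 (95% interval 0.09 to 0.75, adjusted p 0.0544). Both values lay close to the threshold, since 6 of 21 alternative settings called the JQ1 value and 7 of 21 the panobinostat value. Leaving out 1 array did so for JQ1 replicate 2 (0.54, adjusted p 0.0474) and for combination replicate 3 (adjusted p 0.0245) in the JQ1 comparison. In the panobinostat comparison it did so for panobinostat replicate 3 (0.53, adjusted p 0.0329), for JQ1 replicate 2 (adjusted p 0.0480) and for combination replicate 3 (adjusted p 0.0178). The combination stood apart from both compounds alone, with no overlap of arrays. FOS was higher with the combination than with JQ1 by 0.90 ± 0.15 (adjusted p 9.61e-04) and than with panobinostat by 0.92 (adjusted p 0.00196). Panobinostat minus JQ1 was -0.02 (95% interval -0.34 to 0.31, adjusted p 0.960). The means were 6.79 ± 0.09 (SD) with vehicle, 7.21 ± 0.18 with panobinostat, 7.23 ± 0.19 with JQ1 and 8.13 ± 0.30 with the combination, and the middle pair was not separated.

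A second, dimmer FOS cluster (16794955) did not follow the first. It read 6.35, 6.51 and 6.72 with vehicle, 6.77, 6.78 and 6.45 with JQ1, 6.74, 6.56 and 6.57 with panobinostat and 6.69, 6.92 and 6.47 with the combination. The 4 groups overlapped. Its changes against vehicle were 0.14, 0.10 and 0.17 ± 0.14 in the same order, none called (adjusted p 0.694, 0.733 and 0.518 in limma over all clusters). With the mean of the clusters as the value for FOS, the change with the combination was 0.75 and was called. The JQ1 and panobinostat values, at 0.29 and 0.26, were then also called (adjusted p 0.0456 and 0.0485). The combination then exceeded JQ1 by 0.46 (adjusted p 0.00260) and panobinostat by 0.49 (adjusted p 0.00376).

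JUND, the most steadily expressed of the JUN subunits and a dimer partner of FOS, rose with JQ1 and showed no call with panobinostat. It read 9.92, 9.65 and 9.71 on the vehicle arrays and 9.65, 9.82 and 10.02 on the panobinostat arrays, which overlapped. With JQ1 it read 10.60, 10.62 and 10.63, and with the combination 10.60, 10.55 and 10.55. The 6 arrays with JQ1 thus lay within 0.1 of each other and above the 6 arrays without it. The change was 0.86 ± 0.10 with JQ1 (1.81-fold, adjusted p 1.13e-04 in limma) and 0.81 with the combination (1.75-fold, adjusted p 3.23e-05). With panobinostat it was 0.07 (95% interval -0.13 to 0.28, adjusted p 0.621), and the sign turned (to -0.019) without panobinostat replicate 3. Panobinostat minus JQ1 was -0.78 ± 0.10 (adjusted p 1.62e-04), the largest difference between the single compounds among the 5 genes. The JUND signal followed the presence of JQ1 rather than of panobinostat. The combination was above panobinostat by 0.73 (adjusted p 4.91e-04). Against JQ1 it differed by -0.05, with a 95% interval of -0.26 to 0.16 (adjusted p 0.766). The means, from low to high, were vehicle at 9.76 ± 0.14 (SD), panobinostat at 9.83 ± 0.18, the combination at 10.57 ± 0.03 and JQ1 at 10.61 ± 0.02, and neither the lower nor the upper pair was separated by the test.

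IER5, a small nuclear regulator reported to act with the phosphatase PP2A and to activate the heat shock factor HSF1, rose with each treatment. It read 8.34, 8.01 and 7.96 with vehicle and 9.00, 9.25 and 9.26 with JQ1. Panobinostat arrays read 8.97, 8.89 and 8.88, and combination arrays 9.08, 9.42 and 9.27. All treated arrays were above all vehicle arrays, and the JQ1 and combination arrays overlapped. The change was 1.07 ± 0.12 with JQ1 (2.09-fold, adjusted p 1.09e-04 in limma), 0.81 with panobinostat (1.75-fold, adjusted p 3.13e-04) and 1.16 under both compounds (2.23-fold, adjusted p 1.00e-05). The combination was the highest group by its mean, but not apart from JQ1. It differed from JQ1 by 0.09 (95% interval -0.17 to 0.35, adjusted p 0.640), or 0.0048 to 0.18 on leaving out 1 array. From panobinostat it differed by 0.35 (95% interval 0.09 to 0.60, adjusted p 0.0713). That value was called in 5 of 21 alternative settings, among them those without vehicle replicate 1 (adjusted p 0.0369) and without combination replicate 1 (0.44, adjusted p 0.0468). Panobinostat minus JQ1 was -0.26 (95% interval -0.51 to -0.0014, adjusted p 0.142). The means ran from 8.10 ± 0.21 (SD) with vehicle to 8.91 ± 0.05 with panobinostat, 9.17 ± 0.15 with JQ1 and 9.26 ± 0.17 with the combination, and neighbours among the 3 treatments were not separated by the test.

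**Figure D2:**
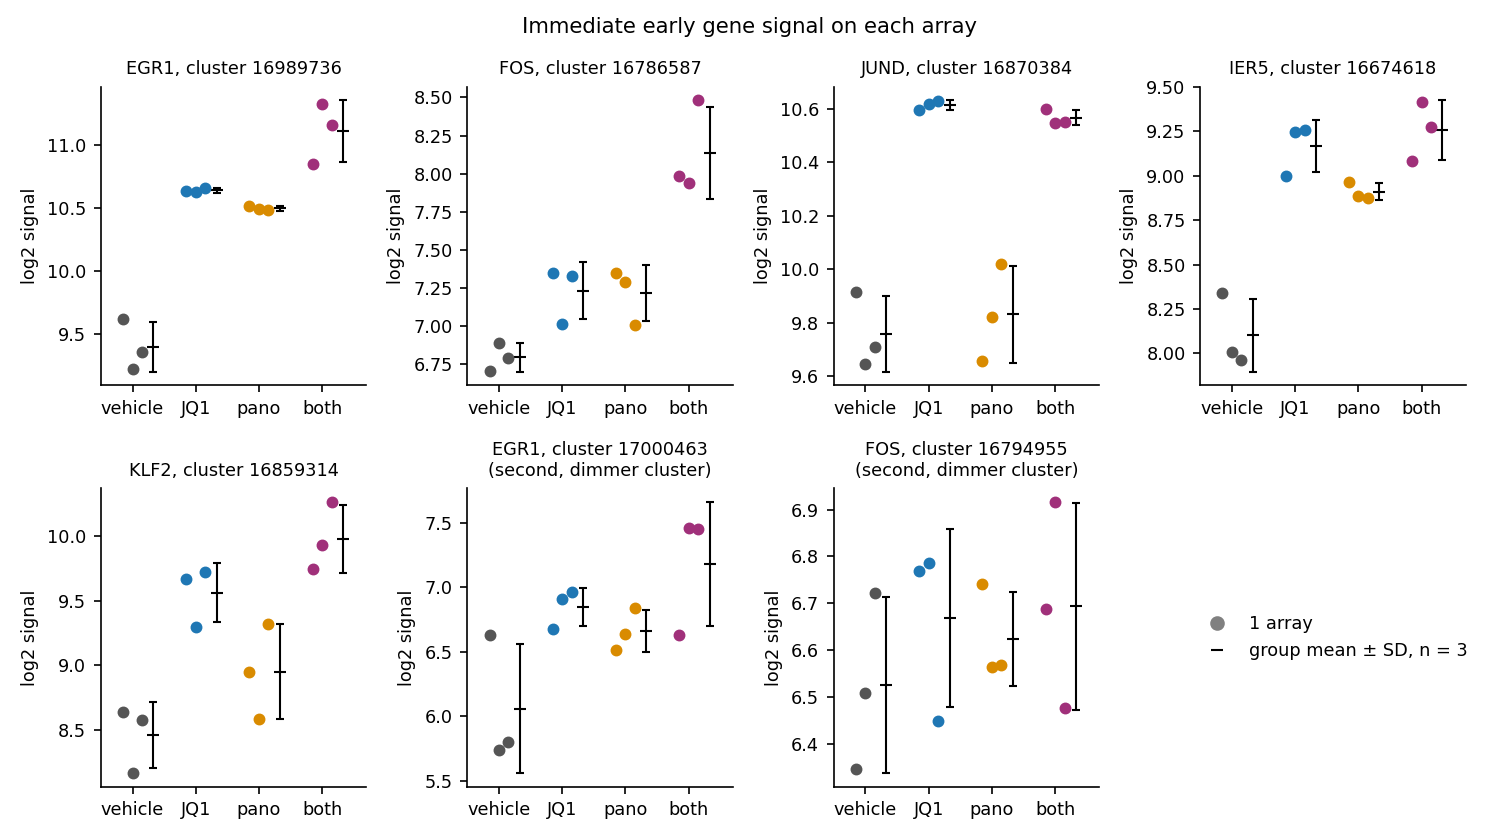
Log2 signal (vertical axis) of EGR1, FOS, JUND, IER5 and KLF2 on each of the 12 arrays, 1 panel per gene with its brighter cluster, and the second clusters of EGR1 and FOS in panels of their own. Points are arrays and bars are group means ± SD on axes that differ between panels, with "pano" for panobinostat alone and "both" for the combination. JUND lies between 10.55 and 10.63 on the 6 arrays with JQ1 and between 9.65 and 10.02 on the others, while FOS is highest on the 3 combination arrays.

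Between treatments, the addition of panobinostat to JQ1 was called for 2 of the 5 genes, EGR1 and FOS, both higher, where 11.7% of all genes were called higher. Arrays did not overlap for these 2 and for KLF2, a separation seen in 20.1% of all genes. The addition of JQ1 to panobinostat was called for 4 of the 5 (EGR1, FOS, JUND and KLF2), all higher, where 6.13% of all genes were called higher. All 5 genes were separated by array in that comparison, as were 14.3% of all genes. Panobinostat alone was below JQ1 alone for 2 of the 5, JUND and KLF2, with 11.6% of all genes called lower. By array the separation held for EGR1, JUND and IER5 and for 19.2% of all genes. JQ1 inhibits a reader of histone acetylation and panobinostat its removal, so the pair compares 2 mechanisms at 1 dose each, not structural relatives.

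**Figure D3:**
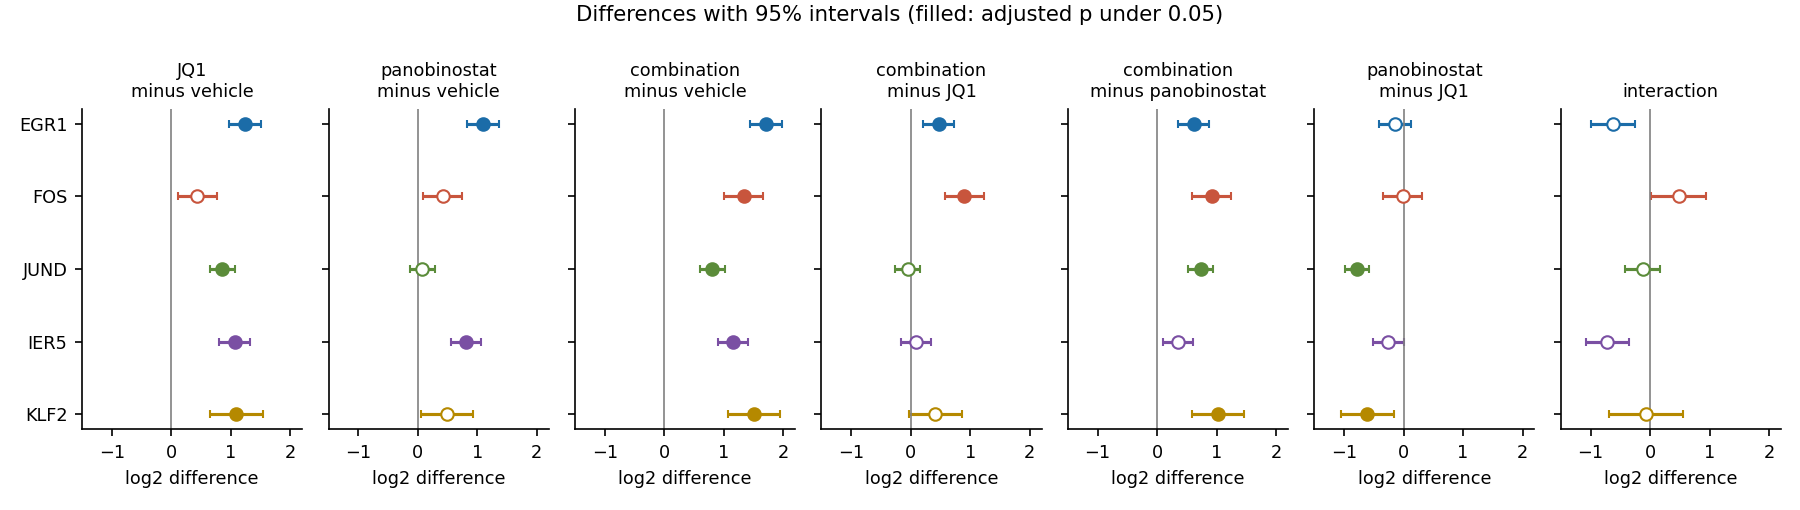
Log2 change (horizontal axis) of EGR1, FOS, JUND, IER5 and KLF2 in the 6 comparisons between groups and in the combination minus the sum of the single changes (interaction), with 95% intervals from limma as bars; filled points have an adjusted p under 0.05 over the 14884 genes. All 5 are filled for the combination minus vehicle, from 0.81 (JUND) to 1.71 (EGR1), and 2 for panobinostat minus vehicle.

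The change with the combination was then set against the JQ1 change plus the panobinostat change. Both are log2 changes, so their sum stands for a product of folds. A sum on the scale of the unlogged signal was not tested, and could give other differences. For EGR1 the sum was 2.34 on the log2 scale and the combination 1.71, a difference of -0.62 ± 0.17 (95% interval -1.00 to -0.25). For IER5 the sum was 1.88 and the combination 1.16, a difference of -0.72 ± 0.17 (95% interval -1.08 to -0.36). FOS went the other way, with a sum of 0.86, a combination of 1.34 and a difference of 0.48 ± 0.21 (95% interval 0.02 to 0.95). That difference was 0.31 without combination replicate 3 and 0.20 with the mean of the FOS clusters. For JUND the difference was -0.12 (95% interval -0.42 to 0.17), and for KLF2 it was -0.07 (95% interval -0.69 to 0.55), with a sum of 1.58 and a combination of 1.51. Leaving out 1 array moved these to between -0.21 and -0.030 for JUND and between -0.25 and 0.11 for KLF2. None of the 5 differences was called: the adjusted p was 0.122 for EGR1, 0.0782 for IER5, 0.343 for FOS, 0.766 for JUND and 0.950 for KLF2 (limma, Benjamini-Hochberg). Unadjusted, 3 of the 5 had a p under 0.05 (EGR1, IER5 and FOS), as had 2037 of all genes. Over all genes 0.759% were called for this difference, which carries a larger error than the others because it uses all 4 groups. IER5 was called without vehicle replicate 1 (-0.84, adjusted p 0.0407), and other settings that called EGR1 or IER5 are given with the dependence on processing.

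**Figure D4:**
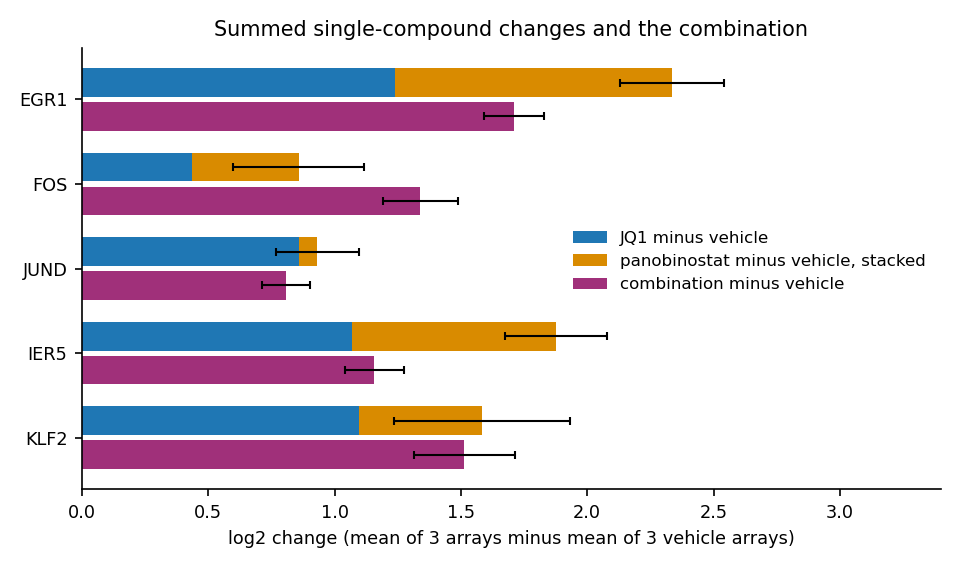
Log2 change against vehicle (horizontal axis) of EGR1, FOS, JUND, IER5 and KLF2 (vertical axis). For each gene the upper bar stacks the panobinostat change on the JQ1 change, and the lower bar is the combination. SE bars from limma mark the sum and the combination. The combination bar is shorter than the stacked bar for EGR1 (1.71 against 2.34) and IER5 (1.16 against 1.88). It is longer for FOS (1.34 against 0.86).

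Related genes were taken as lists, each described by its counts against vehicle (limma, adjusted over all genes) and its median beside the all-gene medians of 0.01 with JQ1, 0.03 with panobinostat and 0.02 with the combination. Of all genes 8.18% were called higher and 9.47% lower with JQ1, 14.5% and 14.8% with panobinostat, and 18.2% and 19.5% with the combination. Of 15 AP-1 partners 10 were measured. With JQ1 3 of them were higher and 0 lower, with panobinostat 0 of 10 were called, and with the combination 2 were higher and 3 lower, with medians of 0.06, -0.03 and -0.03. The alternative settings gave 2 to 3 higher with JQ1, 0 to 1 with panobinostat, and 1 to 3 higher and 1 to 3 lower with the combination. There 1 was higher without vehicle replicate 2 or combination replicate 1 or 3, and 1 was lower without combination replicate 1. JUNB was the least secure of the JQ1 calls (0.24), lost in 17 of 21 settings. JUN, the founding JUN subunit, rose by 0.54 ± 0.11 with JQ1 (adjusted p 0.00463), and ATF3, a stress-induced dimer partner, by 0.53 ± 0.12. JUNB, whose product is usually a weaker activator than JUN, rose by 0.70 ± 0.07 with the combination. FOSL2, a FOS relative, fell by 0.73 there. FOSB, another FOS relative, was not called in any of the 3 (0.03, -0.02 and -0.09).

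Of 5 EGR relatives and NAB corepressors 4 were measured. With JQ1 0 of 4 were called, with panobinostat 1 was higher and with the combination 1 was higher and 1 lower. The medians were 0.05, -0.02 and 0.10. The higher call with the combination, of EGR4 (0.29), was lost in 13 of 20 settings, 8 of which left out a single array (vehicle 1 or 3, any JQ1 array, panobinostat 2, combination 1 or 2). With JQ1 1 was higher without panobinostat replicate 3. NAB1, a corepressor that binds EGR proteins, fell by 0.53 with the combination (adjusted p 8.62e-04), and EGR4 rose by 0.41 ± 0.10 with panobinostat (adjusted p 0.0107, or 0.106 without the 2 arrays least like their groups, vehicle and panobinostat replicate 1). EGR4 was among the 40% of genes with the lowest mean signal, which the setting without dim genes left out. EGR3 was not called in any comparison with vehicle (0.12 with JQ1). All 16 listed KLF relatives were measured. With JQ1 2 were higher and 1 lower, with panobinostat 3 and 3, and with the combination 3 and 4, around medians of -0.0026, 0.0022 and 0.05. The JQ1 counts fell to 1 higher and 0 lower without vehicle replicate 1, JQ1 replicate 1 or JQ1 replicate 3. KLF11, a repressor induced by TGF-β, was at -0.91 with panobinostat and -1.16 with the combination, and KLF3, a repressor that recruits CtBP, at -0.80 and -1.07, all called lower. With JQ1, KLF11 was also called lower (-0.48, lost in 5 of 21 settings), and KLF3 was not called (0.11). KLF6, itself an early response gene, rose by 0.40 ± 0.08 with JQ1, and KLF9, a glucocorticoid-responsive member, by 0.62 ± 0.09 with panobinostat.

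Both measured IER relatives (of 3 listed) were higher in all 3 comparisons. IER2, a nuclear regulator with an N-terminal part like that of IER5, was at 0.52 ± 0.08 with JQ1, 0.75 with panobinostat and 1.18 with the combination (adjusted p 0.00102, 4.43e-05 and 5.45e-07). IER3, a regulator of cell survival, was at 0.64 ± 0.10, 0.73 and 1.10, all called, from 1 of its 11 clusters. With the mean of those clusters the values were 0.33, 0.44 and 0.61, still called. Of 41 other immediate early genes 24 were measured. With JQ1 12 were higher and 4 lower, with panobinostat 11 and 5, and with the combination 15 and 6. Their medians of 0.33, 0.23 and 0.41 were above the all-gene medians, and the settings gave 10 to 14, 8 to 11 and 13 to 16 higher, and 3 to 5, 2 to 5 and 5 to 6 lower. The panobinostat lower count was 2 without vehicle replicate 1 and 3 without panobinostat replicate 1. TIPARP, an ADP-ribosyltransferase, rose with every treatment (1.09 ± 0.09, 0.91 and 1.48). SERTAD1, a regulator of E2F and CDK4, rose by 1.28 ± 0.15 with JQ1 (adjusted p 1.24e-04). CCN2, a matricellular growth factor gene, rose by 1.12 ± 0.29 with JQ1 (adjusted p 0.0187), but the call was lost without vehicle replicate 2 or JQ1 replicate 3 (adjusted p 0.0513 to 0.0762, adjustment over all clusters included). PER1, a clock repressor, rose by 0.89 ± 0.08 with panobinostat. TRIB1, a pseudokinase, went the other way and was called lower in each comparison. Its changes were -0.53 with JQ1, -1.38 ± 0.09 with panobinostat and -1.70 with the combination (adjusted p 6.62e-08).

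Among the kinases and promoter-bound factors upstream of immediate early genes, 20 of 31 were measured. With JQ1 7 were higher and 1 lower, with panobinostat 6 and 4, and with the combination 8 and 6, with medians of 0.14, 0.04 and 0.18. The JQ1 higher count fell to 3 without vehicle replicate 2 or JQ1 replicate 2, and to 4 without vehicle replicate 3 or JQ1 replicate 1 or 3. The JQ1 lower count rose to 2 without vehicle replicate 2, JQ1 replicate 1 or combination replicate 1. MAP2K1, the kinase that activates ERK, rose by 0.61 ± 0.07 with JQ1 (adjusted p 1.50e-04), 0.56 with panobinostat and 0.89 with the combination, all called. SRF, the factor that binds CArG boxes, rose by 0.46 ± 0.08 with JQ1 and by 0.41 with the combination, both called. With panobinostat SRF was at -0.12, not called (adjusted p 0.339). MRTFA, a coactivator of SRF, was at 0.41 with JQ1, 0.66 ± 0.08 with panobinostat and 0.90 with the combination, all called higher. CREBBP, the acetyltransferase that binds CREB, was called lower in all 3 (-0.44, -0.91 and -1.07, SE 0.07). CRTC3, another CREB coactivator, was called lower with panobinostat (-0.77 ± 0.10) and with the combination (-1.23). Of 27 genes reported elsewhere as targets of the 5 genes 16 were measured. With JQ1 2 were higher and 0 lower, with panobinostat 5 and 1, and with the combination 4 and 1, with medians of 0.04, 0.13 and 0.12. The JQ1 calls, HSPA1A and HSPA1B at 0.26 each, were each lost in 8 of 21 settings, and both without vehicle replicate 3 or JQ1 replicate 1 or 2 (1 of them without vehicle replicate 1 or 2). The panobinostat higher count fell to 3 without vehicle replicate 1 or 2 or panobinostat replicate 1, and the combination lower count rose to 2 without vehicle replicate 1. CCND1, the cyclin D1 gene with an AP-1 site in its promoter, fell by 0.80 with panobinostat, and the combination value was -1.37, also called. HSPA1A, an HSF1-driven chaperone gene, rose by 0.72 ± 0.07 with panobinostat and 0.84 with the combination. Its near-identical copy HSPA1B was at 0.70 and 0.80, and the probes may not tell them apart. PDGFA, reported as an EGR1 target, was not called with JQ1 (0.24, adjusted p 0.290).

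**Figure D5:**
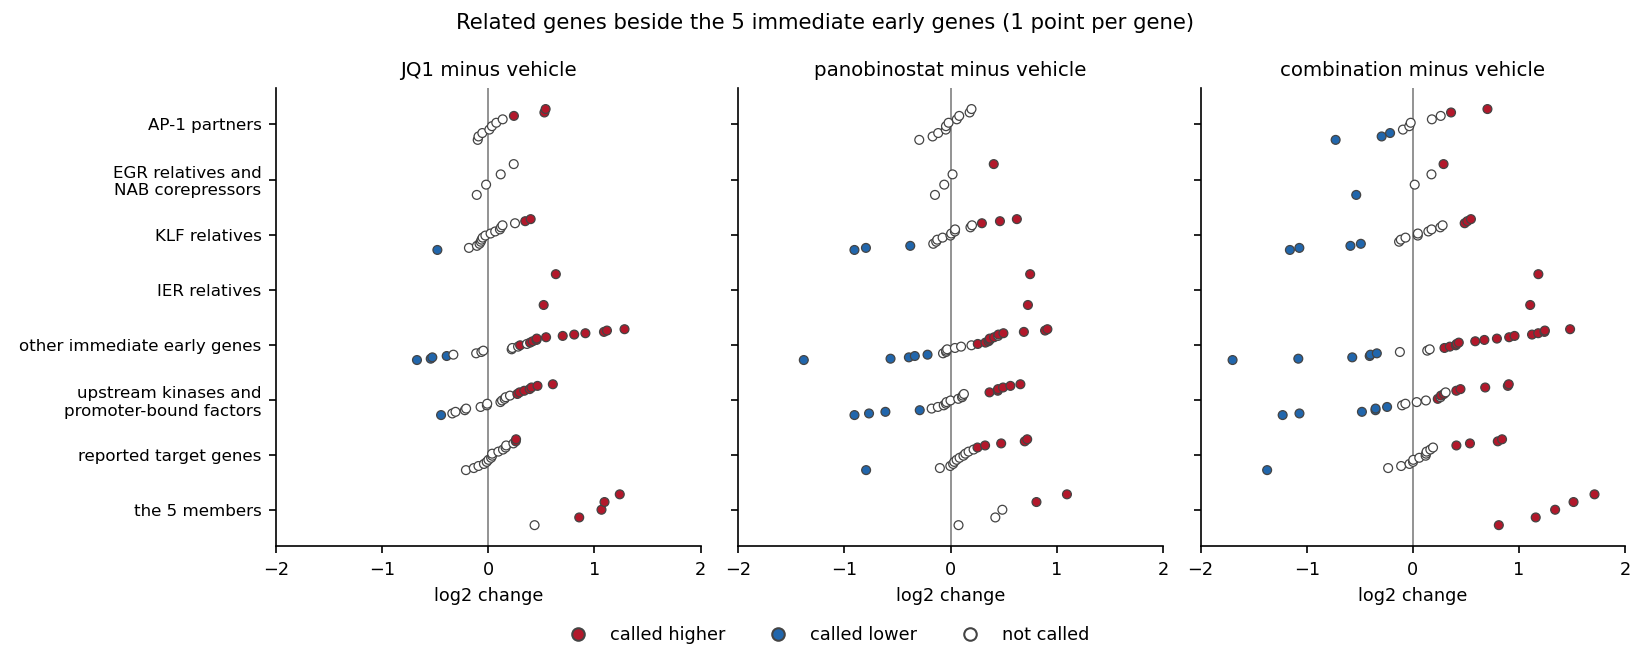
Log2 change (horizontal axis) against vehicle of each measured gene in 7 lists of related genes and of EGR1, FOS, JUND, IER5 and KLF2 (bottom line), by treatment; red points were called higher, blue points lower and white points neither. Both IER relatives are red in all 3 comparisons, and KLF11 and KLF3 are the lowest KLF relatives with the combination, at -1.16 and -1.07.

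Genes with the pattern most like each of the 5 were found among 6949 protein-coding genes with at least the median mean signal, by the root mean square (RMS) difference on the log2 scale over the 12 arrays, after each gene was centred on its vehicle mean. BAIAP2, which encodes a cytoskeletal adaptor, was nearest to EGR1 with an RMS difference of 0.101 and changes of 1.18 with JQ1, 1.01 with panobinostat and 1.65 with the combination. CCNYL1 (0.117) and MYBL1 (0.143) followed. Nearest to KLF2 was ERN1, the gene of the endoplasmic reticulum stress sensor IRE1, at 0.142, then PIM2 at 0.195 and SLC66A3 at 0.202. Nearest to JUND were NDEL1 at 0.106, MAPKBP1 at 0.109 and MORC3 at 0.125, with changes of 0.13, 0.12 and 0.05 with panobinostat. IER5 had ELOVL4 at 0.144, the feedback inhibitor of EGF receptors ERRFI1 at 0.171 and PCYOX1 at 0.175. FOS had no gene as near as the others did: SIRT7, a sirtuin deacylase gene, was at 0.223, RFESD at 0.239 and TRIM62 at 0.240. Among the 5 genes themselves, EGR1 and IER5 were the closest pair with an RMS difference of 0.333, followed by IER5 and KLF2 at 0.342, and EGR1 and JUND were the farthest apart at 0.721. The 3 nearest genes named for each were nearer to it than any of the other 4. A choice among 6949 candidates makes that likely beforehand, so no conclusion is drawn from it. These differences are descriptions over arrays that all the genes share.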

How the data were processed

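The 12 samples are total RNA of SK-N-BE(2) cells, labelled with biotin and read on 1 Human Gene 2.0 ST array each, per the labels. The authors deposited 1 value per transcript cluster and array, taken here as log2 intensities because they run from 1.39 to 14.1. The submitters' processing notes name MAS5 and affy. How background was corrected and arrays were normalised is not given in the sources used here, and the values carry no detection calls. The number of arrays limits the precision. The probe annotation named 16098 clusters, 1 symbol each, and 37519 were unnamed. For each of the 14884 symbols the cluster of highest mean signal was used.

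The 12 arrays were fitted together in R 4.3.3 with limma 3.58.1 (lmFit, eBayes, 1 coefficient per group), giving 6 differences and the interaction. P-values are two-sided, Benjamini-Hochberg adjusted over 14884 genes (over all clusters for the second clusters), called under 0.05, and tested on simulated data. Separate cultures for the replicates are not stated in the labels, so p-values speak only of how these arrays varied, which may be technical variation. An exact permutation test of 3 against 3 cannot give a two-sided p below 0.1 and was not used. The members, lists and tests were chosen with earlier results of these data known. From each list, up to 3 called genes with the largest change per comparison with vehicle and the first uncalled one could be named. Alternatives were scaling, dim genes left out, the mean of a gene's clusters, a variance trend, the compared arrays alone, the replicate number, arrays left out, and adjustment over all clusters.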

Additional observations from a re-analysis of the deposited data

How the results depend on the processing

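Of 730 values of the 5 genes under the alternatives, 681 kept direction and side of the threshold, 28 gained a call, 13 lost one and 8 changed sign. The changes of sign were in values near 0, all on leaving out 1 array: JUND with panobinostat (-0.019 to 0.16), FOS for panobinostat minus JQ1 (-0.12 to 0.090) and the KLF2 interaction (-0.25 to 0.11). Counts of the 5 genes called were 4 with panobinostat under a variance trend with robust estimation, and 1 for the combination against JQ1 with the mean of a gene's clusters. For panobinostat against JQ1 the count was 1 with the 6 compared arrays alone, 1 without the 2 arrays least like their groups and 1 with adjustment over all clusters. For the interaction it was 2 with quantile normalization (EGR1 and IER5), 2 with the variance trend (the same pair) and 1 without dim genes (IER5). Leaving out 1 array gave 4 to 5 with JQ1, 2 to 3 with panobinostat, 5 with the combination, 1 to 2 for the combination against JQ1, 4 to 5 against panobinostat, 1 to 2 for panobinostat against JQ1 and 0 to 1 for the interaction. Over all genes, adjustment over all clusters left 1655 called with JQ1 and 1158 for the combination against panobinostat, and the 6 compared arrays alone left 1325 for the latter. The interaction was called for 113 genes, and for 41 with median centring, 313 with quantile normalization, 259 without dim genes, 48 with a replicate block, 324 with the variance trend, 5 with adjustment over all clusters and 28 to 86 without 1 array. The settings with fewer samples or more tests differ by construction, and for the others the cause was not tested. Same-numbered replicates did not as a rule deviate in the same direction (4 of 18 pairs correlated over 0.1, and 0 of 12 arrays correlated best with its own number). For replicate 1 these correlations ran from -0.693 to 0.236 with a mean of -0.315, so some deviations were opposed. The cause was not tested. The replicate block added KLF2 with panobinostat (adjusted p 0.0224) and for the combination against JQ1 (adjusted p 0.0497). The alternatives without the 2 least typical arrays and with adjustment over all clusters, and 2 of the 11 motifs, were chosen after seeing the data. Without detection calls, how far any cluster lies above background is not known.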
